A study of Salmo salar with 189 samples.

Results

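Cry3-Ch22 and Cry3-Ch12 are the Cry3 genes of the Atlantic salmon on chromosomes 22 and 12. They form a Ss4R pair, that is, a pair of duplicates that goes back to the genome duplication at the root of the salmonids. The members were chosen by name, by a rule that uses no values, though with earlier results of these data known, and are 2 of the 48 transcripts of the deposited table, where they are listed as Cry1bb-Ch22 and Cry1bb-Ch12. Each was matched as the only cryptochrome of its chromosome among the probes. RefSeq lists both as protein-coding, with 3 transcripts for Cry3-Ch22 (gene 106583488, LOC106583488) and 1 for Cry3-Ch12 (gene 106565112, LOC106565112).

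Transcripts were counted with a NanoString CodeSet, a set of barcoded probes that bind RNA without amplification, in the saccus vasculosus (SV), a vascular sac below the hypothalamus of fishes, in the optic tectum (OT), the visual part of the midbrain, and in the gill. The study asked how clock transcripts and their duplicates run under a light-dark cycle and under constant conditions. Each tissue gave 63 samples, and 189 samples came from 64 fish in all, 3 fish at each time point and 4 h between time points. All fish were pre-smolts of about 45 g, raised in constant light and held for 8 weeks under a light-dark cycle at 14 °C, without food before and during sampling. Constant light (LL) was sampled from CT9 to CT29 in arm A, where CT counts hours from a usual time of lights-on. At that time the light came on in arm A and was withheld in arm B. Constant darkness (DD) was sampled from CT1 to CT29 in arm B, and the light-dark cycle (LD) from ZT5 to ZT21 in arm A, where ZT counts hours from lights-on. The samples of arm A at CT1 and CT5 carry LL in the labels and lie in the usual light hours, and they closed the diel series of 21 samples. The labels give 8 h of light and 16 h of dark for the cycle, while the methods of the study give a shorter day. Dark samples were taken under red light. The labels name the arms A and B, and the methods mention a pair of tanks without saying which arm each held. Light and arm cannot be told apart where LL is set against DD.

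Cryptochromes are flavoproteins related to the photolyases, which repair DNA with the energy of light. In the vertebrate clock, CLOCK and ARNTL drive the transcription of the period and cryptochrome genes, and the PER and CRY proteins in turn repress CLOCK and ARNTL, which closes a loop of about a day. In zebrafish some cryptochromes repress CLOCK and ARNTL strongly and others do so little or not at all, and some clock genes of fish, per2 among them, are switched on by light.

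The probe targets are shown because the comparison of both members rests on probes that tell the duplicates apart. Each target is a stretch of 100 bases, and 30 bases of each are given, 5′ to 3′, with the longest run of bases that both targets share, 6 bases, in capitals.
Cry3-Ch22: cacagcgggaccAACAGTcatcatggccgt
Cry3-Ch12: cgcagtagctagAACAGTtatgcaactgtc
The first stretch is bases 1744 to 1773 of its transcript, within a target from base 1735 to base 1834 with 52% G and C. The second is bases 665 to 694, within a target from base 627 to base 726 with 48% G and C. The targets thus lie in different parts of the transcripts, and no run longer than 6 bases is common to them. Because they come from different parts, this short run does not show whether a probe also binds the other member's RNA. Neither target was compared with the matching stretch of the other member's transcript. Among all 46 targets of the CodeSet, the longest run shared with another target was 10 bases for Cry3-Ch22 (with Nr1d2-Ch14) and 8 bases for Cry3-Ch12 (with Nr1d1-Ch3). How well each probe binds was not measured, so a ratio of 1 between the members does not mean equal numbers of RNA molecules.

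Values are signal, the barcode counts that the authors normalised to spike-in controls. Within each of the 189 libraries the values were whole multiples of 1 step, and the number of steps is used here as a measure of depth, although a step was not shown to be 1 counted barcode. The median library had 12733 steps in the SV, 34579 in the OT and 8575 in the gill. Within the SV the median was 17028 steps in libraries labelled LD, 13066 in LL and 10911 in DD. The LL and DD medians (24 libraries each) include CT1 and CT5, and so are not those of the samples compared over CT9 to CT29. Cry3-Ch22 had between 14 and 123 steps in the SV, between 83 and 254 in the OT and between 5 and 60 in the gill. Cry3-Ch12 had between 7 and 66, between 40 and 183, and between 9 and 50. If each step were 1 count, counting error would make up 24.9%, 45.1% and 44.9% of the variance between fish of the same time point for Cry3-Ch22 (SV, OT and gill) and 43.6%, 16.0% and 82.0% for Cry3-Ch12. In 3 libraries the step was above 2, namely 1 SV library of LL at CT21 (8.14, with 14 steps of Cry3-Ch22 and 7 of Cry3-Ch12), 1 SV library of LL at CT29 (2.99, with 21 and 10 steps) and 1 gill library of LD at ZT9 (2.13, with 22 and 12 steps). Leaving out these libraries, a choice made after their steps were seen, changed no call of a member or of their ratio. The CodeSet holds clock genes and no markers of tissues, so the labelled tissues could not be checked. Both members were among the transcripts that the study lists as expressed, which number 38 in the SV, 41 in the OT and 40 in the gill, with 13, 15 and 14 Ss4R pairs.

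**Figure D1:**
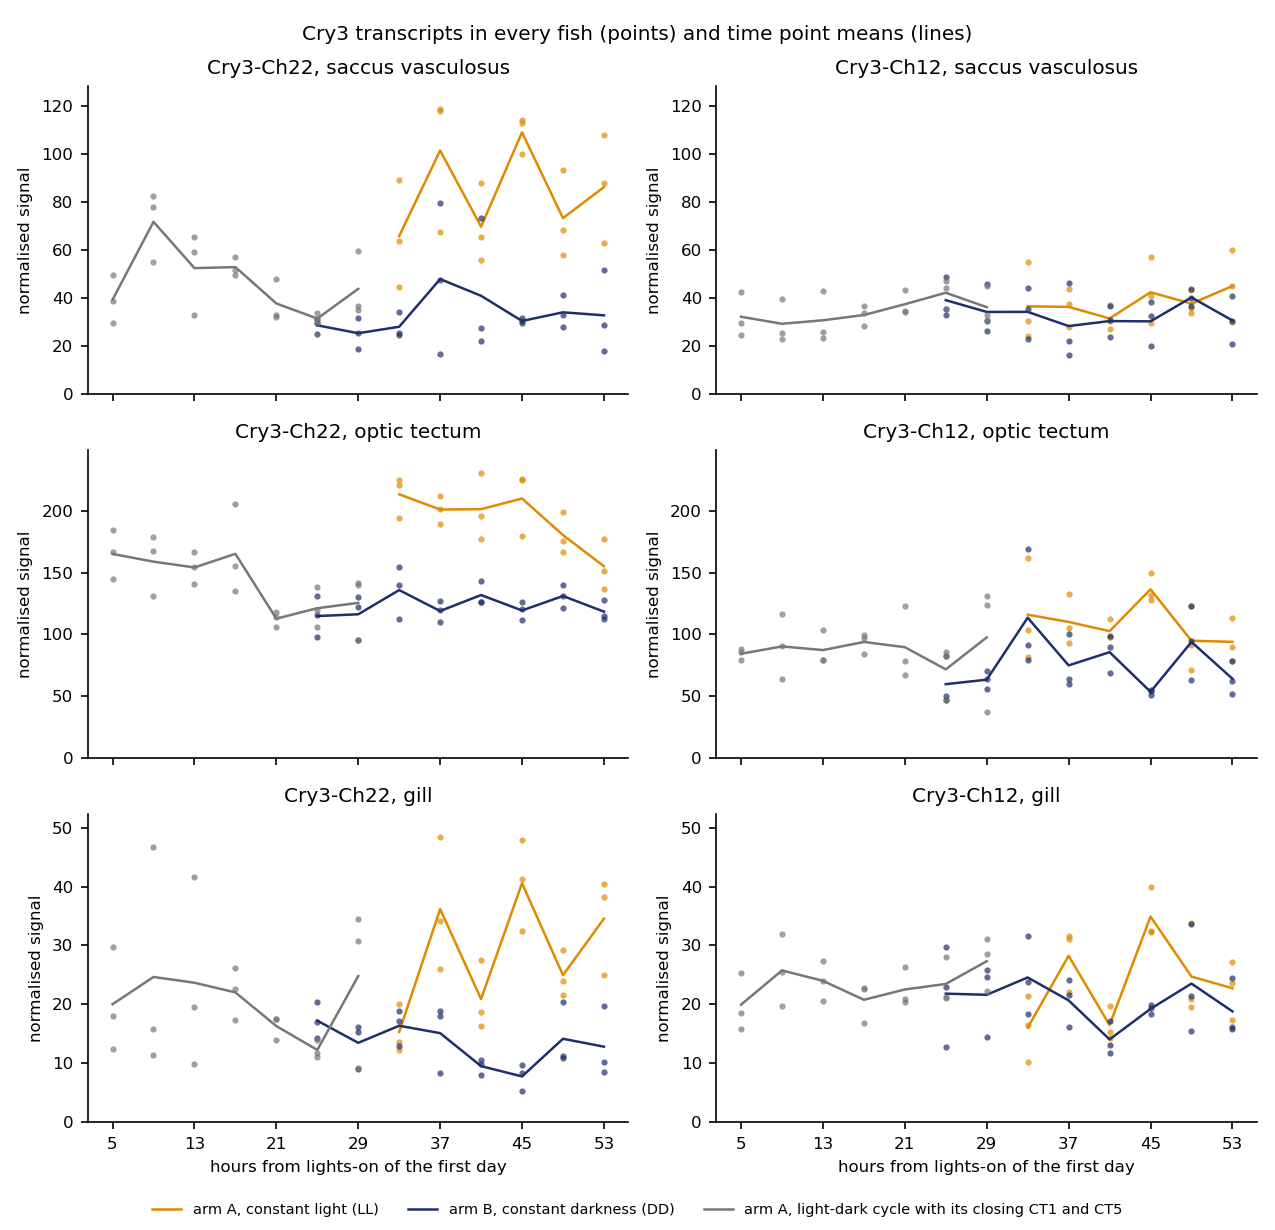
Normalised signal (y axis) of Cry3-Ch22 (left) and Cry3-Ch12 (right) in the SV, the OT and the gill against hours from lights-on of the first day (x axis). Points are single fish, 3 at each time point, and lines are means; the SV signal of Cry3-Ch22 in LL lies between 44.5 and 119, and that in DD between 16.7 and 79.5.

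In the SV, Cry3-Ch22 was higher in LL than in DD, and Cry3-Ch12 did not pass the test. Over CT9 to CT29 the lowest, median and highest signals of Cry3-Ch22 were 44.5, 87.9 and 119 in the 18 LL fish, against 16.7, 29.8 and 79.5 in the 18 DD fish. All 18 LL fish lay above the median of the DD fish and 10 of them above the highest DD fish, and at 4 of 6 time points every LL fish was above every DD fish. The exceptions were CT13 and CT17, at which single DD fish reached 79.5 and 73.3. At CT21, which is in the usual night, the 3 LL fish had 113, 99.9 and 114, against 31.6, 30.2 and 29.5 in the 3 DD fish. The LL value of 114 is from the library with 14 steps. At CT21 the step was 1.64, 1.85 and 8.14 in the LL fish, against 1.09, 1.12 and 1.02 in the DD fish. Counted in steps, Cry3-Ch22 had 69, 54 and 14 there in LL, against 29, 27 and 29 in DD. In steps, which also vary with depth, the groups overlapped at CT21, CT25 and CT29 and did not at CT9. The difference, LL minus DD on log2(signal + 1), was 1.28 (SE 0.18, n = 18 each), which is a fold of 2.43 on that scale. The permutation test within time points gave p = 1e-05, the smallest that 100000 resamples can give, and an adjusted p of 0.00038 (Benjamini-Hochberg over 38 transcripts). In this comparison 13 of the 38 transcripts passed, which is 34.2%, and Cry3-Ch22 had the largest difference of the 38. Without the libraries of few steps its difference was 1.31 (adjusted permutation p = 7.6e-05), and 22 transcripts passed. With the lowest-, middle- or highest-numbered fish of each time point left out, 8, 7 and 13 SV transcripts passed.

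The signals of Cry3-Ch12 in the SV were 24.1, 36.4 and 60.0 (lowest, median and highest) in LL, against 16.5, 34.0 and 46.2 in DD. The groups overlapped over most of their range, and at 0 of 6 time points did every LL fish lie above every DD fish. The difference was 0.25 (SE 0.15, permutation p = 0.0924, adjusted p = 0.137). The median difference over all 38 SV transcripts was also 0.25. When each sample was instead scaled to the geometric mean of its expressed transcripts, Cry3-Ch22 differed by 0.99 (adjusted permutation p = 0.00038), Cry3-Ch12 differed by -0.04, and 3 transcripts passed, 2 of them higher and 1 lower, where all 13 had been higher. This scaling moved the median over the 38 to -0.04. In RNA of whole tissue a change in the number of cells of a type and a change of RNA per cell cannot be told apart.

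In the OT both members were higher in LL. The signals of Cry3-Ch22 were 137, 195 and 231 (lowest, median and highest of 18 fish) in LL, against 110, 126 and 154 in DD. Of the 18 LL fish, 16 lay above the highest DD fish, and at 6 of 6 time points the groups did not overlap. The difference was smaller than in the SV at 0.61 (SE 0.05, a fold of 1.52) but varied least between fish, with permutation p = 1e-05, again the smallest possible, and an adjusted p of 0.000102. Cry3-Ch12 had 70.9, 104 and 162 in LL, against 51.3, 73.4 and 169 in DD, and the highest fish of all was a DD fish at CT9. Its difference was 0.47 (SE 0.12, a fold of 1.38, permutation p = 0.00236, adjusted p = 0.00691). It was largest at CT21, at which the 3 LL fish had 128, 132 and 150 and the 3 DD fish had 55.3, 51.3 and 54.3, a difference of 1.33, while at CT9 and CT25 the differences were 0.05 and 0.03. In the OT 20 of 41 transcripts passed, or 48.8%, with a median difference of 0.06 over all of them, and the members ranked 3rd and 4th by the size of the difference. Of the 20, 16 were higher and 4 lower in LL, a split that scaling to the geometric mean turned to 9 higher and 19 lower, with a median of -0.08. Both members were higher under that scaling too (0.47 for Cry3-Ch22 and 0.33 for Cry3-Ch12). Without the lowest-, middle- or highest-numbered fish 12, 14 and 21 OT transcripts passed. The call of Cry3-Ch12 was lost when the fish with the lowest number at each time point were left out (0.38, adjusted permutation p = 0.171).

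In the gill, as in the SV, Cry3-Ch22 passed as higher in LL and Cry3-Ch12 did not pass. The signals of Cry3-Ch22 were 12.2, 26.8 and 48.4 in the 18 LL fish, against 5.24, 10.7 and 20.5 in the 18 DD fish. All LL fish were above the DD median and 13 of the 18 above the highest DD fish, and the groups did not overlap at 5 of 6 time points. The exception was CT9, the first time point at which the usual light hours had passed, with 20.1, 13.6 and 12.2 in LL and 17.2, 18.9 and 13.0 in DD. From CT13 on the difference was 1.24, 1.03, 2.26, 0.82 and 1.42 at successive time points. Over all time points it was 1.11 (SE 0.13, a fold of 2.16), with permutation p = 1e-05 and an adjusted p of 0.0004 over 40 transcripts, the largest difference in this tissue too. Cry3-Ch12 had 10.2, 21.7 and 40.0 in LL, against 11.8, 18.9 and 33.6 in DD, with a difference of 0.20 (SE 0.11, permutation p = 0.129, adjusted p = 0.323). At CT21 every LL fish of Cry3-Ch12 (32.3 to 40.0) lay above every DD fish (18.4 to 19.9), a difference of 0.82. At CT9 the difference of Cry3-Ch12 was -0.61. Of the 40 gill transcripts 8 passed, or 20%, of which 4 were higher and 4 lower in LL. That count was 4 with every transcript kept, 11 after scaling to the geometric mean (4 higher and 7 lower), and 2, 7 and 3 without the lowest-, middle- or highest-numbered fish.

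**Figure D2:**
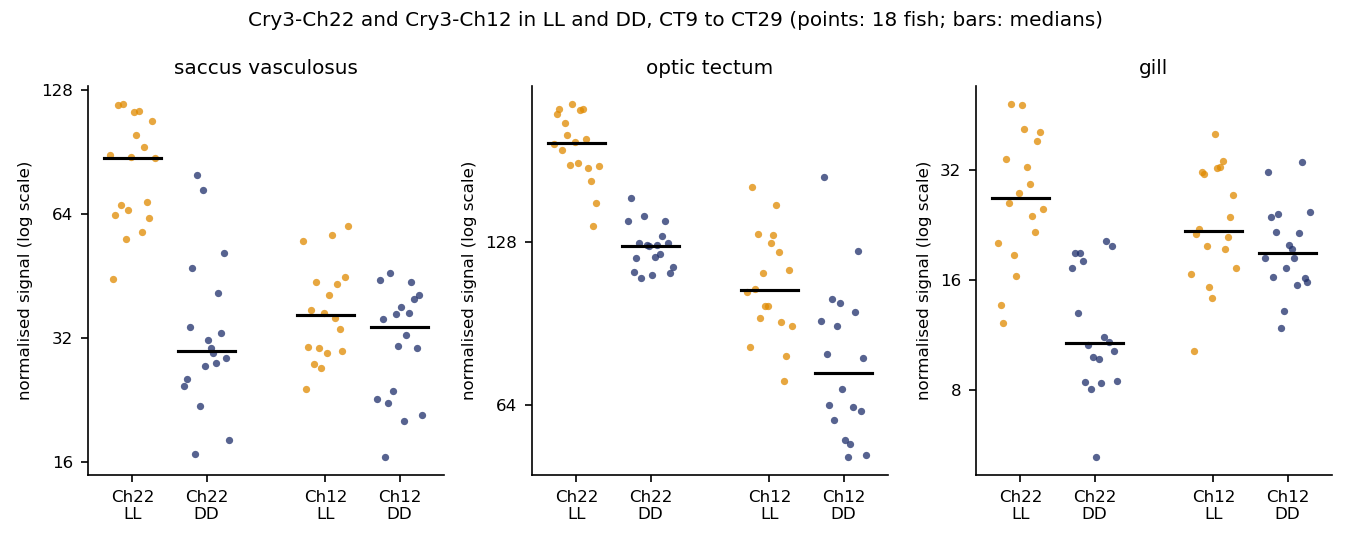
Normalised signal (y axis, log scale, a scale of its own in each tissue) of Cry3-Ch22 and Cry3-Ch12 in 18 LL and 18 DD fish per tissue (x axis). Points are fish from CT9 to CT29 and bars are medians; the medians of Cry3-Ch22 are 87.9 in LL and 29.8 in DD in the SV, and those of Cry3-Ch12 are 36.4 and 34.0.

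The ratio of the members within a sample does not depend on how the sample was scaled. In the SV the ratio of Cry3-Ch22 to Cry3-Ch12 was 1.46, 2.13 and 3.83 (lowest, median and highest) in LL, against 0.576, 0.913 and 2.88 in DD. It was above 1 in 18 of 18 LL fish and in 6 of 18 DD fish. The log2 ratio was 1.06 higher in LL (SE 0.16, permutation p = 1e-05, adjusted p = 0.00013 over 13 pairs). It was the 1 pair of the 13 in the SV that passed, 7.69%. In the gill the ratio was 0.571, 1.22 and 1.93 in LL, against 0.263, 0.608 and 1.22 in DD, and was above 1 in 13 of 18 LL fish and in 2 of 18 DD fish. The log2 ratio was 0.97 higher in LL (SE 0.19, permutation p = 2e-05, adjusted p = 0.00028), where 2 of 14 gill pairs passed, 14.3%. In the OT the ratio was 1.33, 1.77 and 2.69 in LL, against 0.913, 1.71 and 2.34 in DD, and the log2 ratio differed by 0.14 (SE 0.10, permutation p = 0.245, adjusted p = 0.298), while 5 of the 15 OT pairs passed, 33.3%. The ratio thus passed in the SV and the gill and did not pass in the OT.

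These differences between tissues were themselves tested. The LL minus DD change of the log2 ratio was larger in the SV than in the OT by 0.92 (permutation p = 0.00041, adjusted p = 0.0082 over all 80 tests of pairs). It was smaller in the OT than in the gill, by -0.83 (permutation p = 0.00198, adjusted p = 0.0264), and the SV and the gill differed by 0.09 (permutation p = 0.802). Of 40 such tests of LL minus DD over all pairs and the 3 pairs of tissues, 3 passed, 7.5%, and 2 of them were of this pair. These 2 tests share the OT samples and are not independent. Neither held in every subset of fish: without the lowest-numbered fish the differences were 0.86 (adjusted p = 0.116) and -0.81 (adjusted p = 0.199) by the same permutation test, without the middle ones 1.00 and -1.05 (adjusted p = 0.0373 and 0.0566), and without the highest-numbered ones 0.89 (adjusted p = 0.126) and -0.62 (adjusted p = 0.266). With a pseudocount of 10 the difference between OT and gill was -0.44 and did not pass (adjusted permutation p = 0.113). For Cry3-Ch22 alone the SV exceeded the OT by 0.67 (permutation p = 0.031, adjusted p = 0.257 over 224 tests of transcripts). With the fish as a replicate block, it did so by 0.77 with an adjusted permutation p of 0.00576. The block kept only fish measured in both tissues. At CT17 in DD it thus left out an SV fish with a signal of 73.3 and an OT fish with 126. The values 0.67 and 0.77 therefore rest on different sets of fish, and the effect of pairing alone was not tested.

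**Figure D3:**
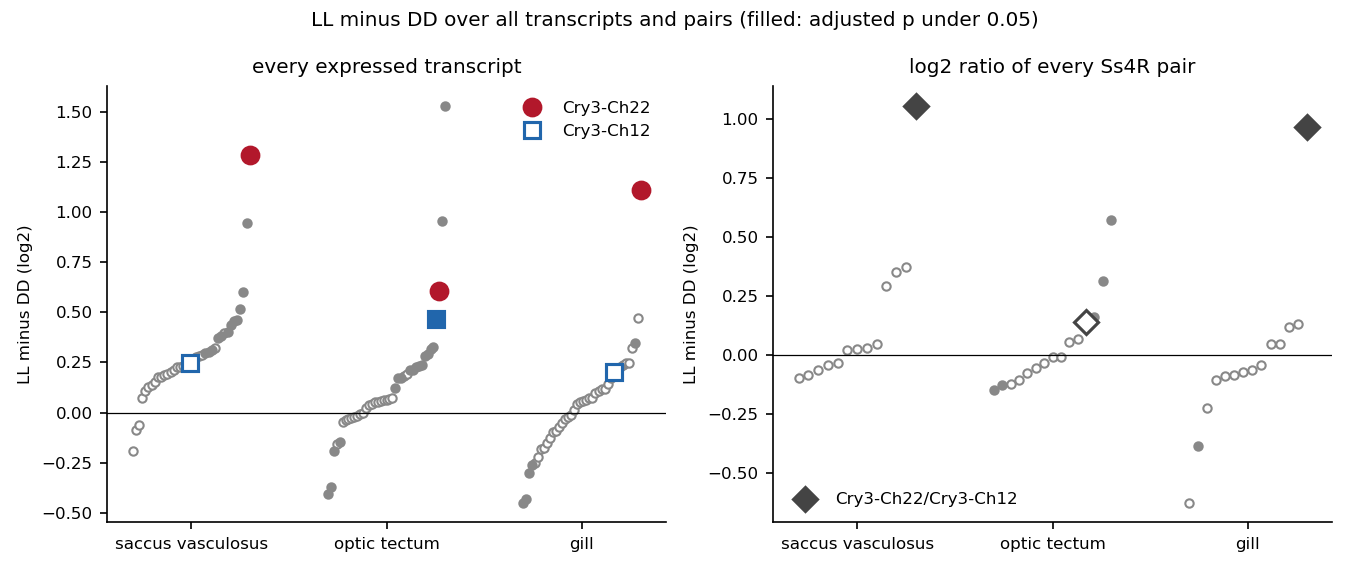
Left, LL minus DD on log2(signal + 1) (y axis) of every expressed transcript in each tissue (x axis), in rising order; right, the same for the log2 ratio of every Ss4R pair. Filled symbols have an adjusted permutation p under 0.05 and large symbols are the Cry3 pair (red circle Cry3-Ch22, blue square Cry3-Ch12, diamond their ratio), with Cry3-Ch22 at the top of the SV (1.28) and the gill (1.11) and 3rd in the OT (0.61).

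The ratio also differed between tissues when all conditions were pooled. The mean log2 ratio was 0.44 in the SV, 0.78 in the OT and -0.29 in the gill (63 samples each), and the ratio was above 1 in 41, 61 and 24 of the samples. A constant factor between the probes cancels in a difference between tissues, while a background signal added to each value would not. Whether background was subtracted is not known, and Cry3-Ch22 had between 5 and 60 steps in the gill, against 83 to 254 in the OT. The SV was below the OT by 0.34 (-0.34, permutation p = 0.00027, adjusted p = 0.000348), the SV was above the gill by 0.73 and the OT above the gill by 1.07 (both permutation p = 1e-05, the smallest possible, adjusted p = 1.38e-05). The order of SV and OT was not the same in each condition. SV samples of LL had a mean log2 ratio of 1.13 ± 0.34, and OT samples of LL had 0.85 ± 0.29 (SD, n = 18 each). DD samples had 0.07 ± 0.61 (SV) and 0.71 ± 0.38 (OT), and diel samples 0.41 ± 0.62 (SV) and 0.74 ± 0.40 (OT, SD, n = 18 and 21 per tissue). The gill mean was the lowest in each of these, at 0.24 ± 0.42 for LL, -0.72 ± 0.65 for DD and -0.33 ± 0.73 for the diel series. Differences of this kind were common, since 35 of 40 tests over all pairs passed, 87.5%.

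**Figure D4:**
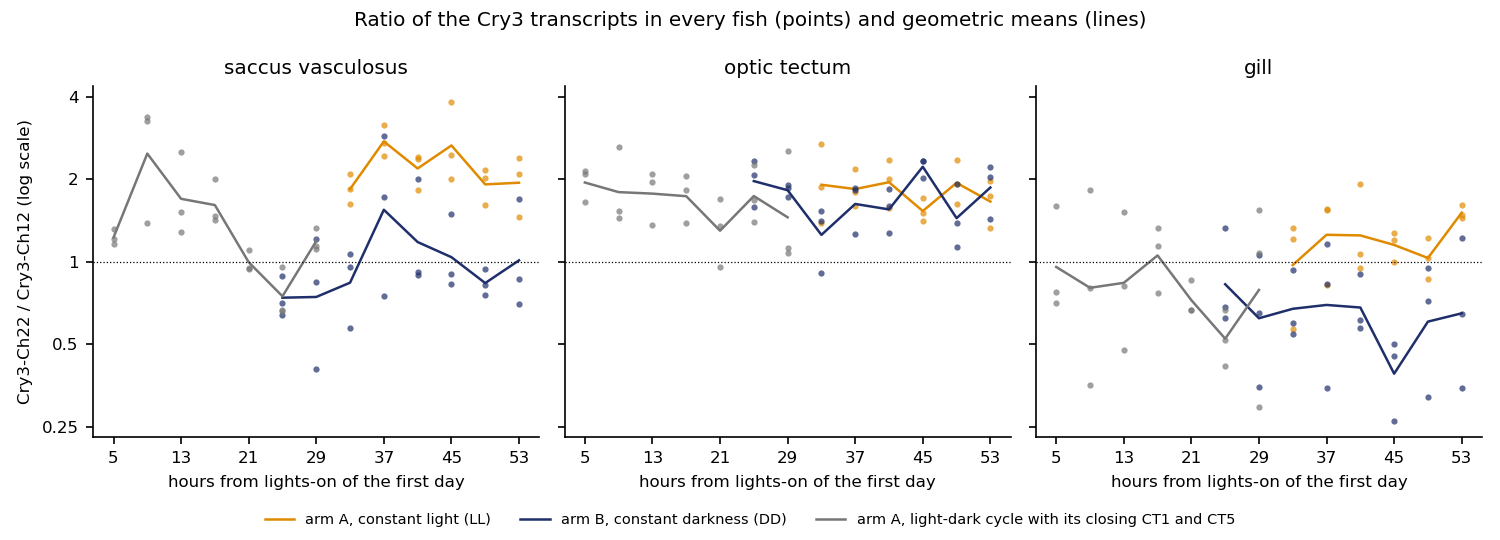
Ratio of the signal of Cry3-Ch22 to that of Cry3-Ch12 (y axis, log scale) against hours from lights-on of the first day (x axis) in the SV, the OT and the gill. Points are single fish, lines are geometric means of 3 fish, and the dotted line marks a ratio of 1; in the SV the LL fish lie between 1.46 and 3.83, all above it.

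To set light against darkness within arm A, the hours from CT9 to CT21 in LL were compared with the same hours in LD, which are dark. The LL fish were taken a day later than the LD fish, so that light and day of sampling cannot be told apart here. Cry3-Ch22 was higher in the lit night in the OT, with 178, 207 and 231 (lowest, median and highest of 12 fish) in LL, against 106, 148 and 205 in LD. All 12 LL fish lay above the LD median and 6 of them above the highest LD fish, and the difference was 0.50 (SE 0.07, permutation p = 7e-05, adjusted p = 0.00143). In the OT 5 of 41 transcripts passed, 12.2%, and Cry3-Ch22 had the second largest difference after Per2-Ch14, a period gene (1.29). Without the middle or the highest-numbered fish the call was lost at 0.39 (adjusted permutation p = 0.116) and 0.47 (adjusted permutation p = 0.0842). Cry3-Ch12 in the OT had 82.1, 109 and 162 in LL, against 63.6, 87.7 and 123 in LD, with a difference of 0.36 (SE 0.13, permutation p = 0.00975, adjusted p = 0.0594).

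In the SV the lit night gave 44.5, 88.6 and 119 for Cry3-Ch22 in LL, against 32.3, 53.4 and 82.6 in LD. Of 12 LL fish 7 exceeded the highest LD fish. The difference of 0.67 (SE 0.15) was the largest of the 38 transcripts but did not pass (permutation p = 0.00429, adjusted p = 0.163), and 0 of the 38 did, 0%, with 3 at an unadjusted permutation p under 0.05. With CT9 left out, that is over CT13 to CT21 alone, the difference was 0.95 and passed (adjusted permutation p = 0.0194), and so did the change of the log2 ratio (0.85, adjusted permutation p = 0.0168). With values as deposited, these calls thus depended on leaving out CT9. There the SV signal was 89.3, 44.5 and 63.7 in LL, against 54.9, 77.7 and 82.6 at ZT9 in LD, and these groups overlapped. Cry3-Ch22 in the SV also passed with CT9 kept when samples were scaled to the geometric mean of their expressed transcripts. In the gill Cry3-Ch22 had 12.2, 26.8 and 48.4 in LL, against 9.82, 17.5 and 46.8 in LD, a difference of 0.38 (SE 0.24, permutation p = 0.172, adjusted p = 0.765), where 1 of 40 transcripts passed, 2.5%. Cry3-Ch12 differed by 0.15 in the SV and by -0.04 in the gill (permutation p = 0.323 and 0.795). Over CT9 to CT21 the log2 ratio of the pair differed by 0.53 in the SV, 0.14 in the OT and 0.44 in the gill without passing (adjusted permutation p = 0.147, 0.44 and 0.311), while 0 of 13, 5 of 15 and 0 of 14 pairs passed, 0%, 33.3% and 0%, with 2, 7 and 2 at an unadjusted permutation p under 0.05.

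The nights of DD and LD were both dark and differed in arm and day. They also differed in the hours before, since the LD fish had had their usual light hours and the DD fish had spent those hours in darkness. Arm, day and preceding light cannot be told apart here. Cry3-Ch22 in the SV had 16.7, 29.8 and 79.5 (12 fish) in DD, against 32.3, 53.4 and 82.6 in LD. Of the DD fish 8 lay below the lowest LD fish, while the difference of -0.62 (SE 0.23, permutation p = 0.0171, adjusted p = 0.146) did not pass. In the gill it had 5.24, 10.2 and 18.9 in DD, against 9.82, 17.5 and 46.8 in LD, with a difference of -0.73 (SE 0.24, permutation p = 0.00577, adjusted p = 0.0799). This passed only when samples were scaled to the geometric mean of their expressed transcripts (-0.79, adjusted permutation p = 0.0171), as did that of Cry3-Ch12 in the gill (-0.26 as deposited and -0.32 so scaled, adjusted permutation p = 0.0351). In the OT the differences were -0.20 for both members (permutation p = 0.0151 for Cry3-Ch22 and 0.227 for Cry3-Ch12). Transcripts that passed were 0 of 38 in the SV, 1 of 41 in the OT and 0 of 40 in the gill, that is 0%, 2.44% and 0%, with 8, 5 and 8 at an unadjusted permutation p under 0.05. By their medians over these hours, Cry3-Ch22 stood in the order LL, LD and DD from high to low in every tissue, at 88.6, 53.4 and 29.8 (SV), at 207, 148 and 126 (OT), and at 26.8, 17.5 and 10.2 (gill). Of the neighbours in this order, LL and LD differed past the threshold in the OT and no others did, whereas LL and DD differed in all 3 tissues over CT9 to CT29. The order was not particular to Cry3-Ch22 in the SV. There the median over all 38 transcripts was 0.11 for LL minus LD and -0.22 for DD minus LD. The 5 other cryptochromes differed by 0.15 to 0.21 and by -0.38 to -0.15 in the SV. For LL minus LD they differed by -0.12 to 0.36 in the OT and by -0.06 to 0.34 in the gill.

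**Figure D5:**
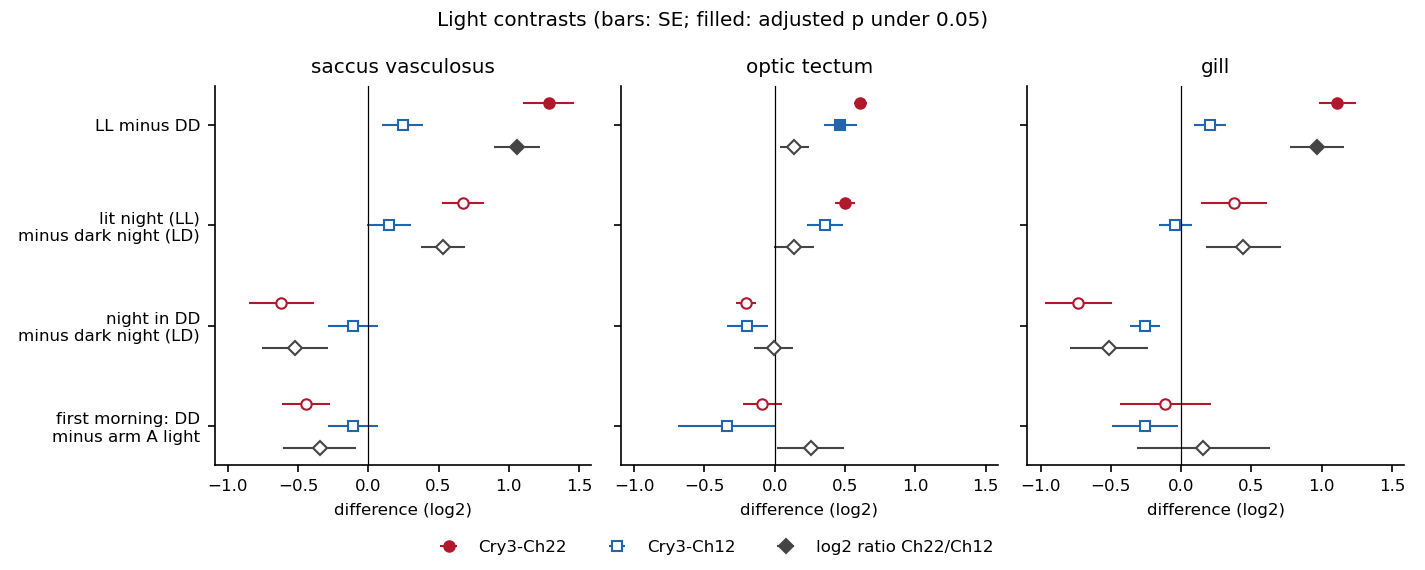
Difference on the log2 scale (x axis) in 4 contrasts of light (y axis) for Cry3-Ch22, Cry3-Ch12 and their log2 ratio in each tissue. Points are differences, bars are SE and filled symbols have an adjusted permutation p under 0.05; in the SV Cry3-Ch22 lies at 1.28, 0.67, -0.62 and -0.44 from the top.

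On the first morning, at CT1 and CT5, light was withheld from the DD fish for the first time and arm A was in its usual light. In the SV Cry3-Ch22 had 18.7, 27.5 and 31.9 (lowest, median and highest of 6 fish) in DD, against 29.4, 34.6 and 59.8 in arm A. All 6 DD fish lay below the arm A median. The difference was -0.44 (SE 0.17) with an exact permutation p of 0.025, where 400 arrangements allow no p below 0.005, and an adjusted p of 0.136. In the OT and the gill Cry3-Ch22 differed by -0.09 and -0.11, and Cry3-Ch12 differed by -0.11, -0.34 and -0.26 in the SV, the OT and the gill, none past the threshold (smallest exact permutation p = 0.275). Transcripts that passed were 0 of 38, 6 of 41 and 0 of 40, that is 0% in the SV, 14.6% in the OT and 0% in the gill, with 9, 19 and 11 at an unadjusted exact p under 0.05.

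A comparison added after these values had been seen set the second morning, CT25 and CT29, against the first, CT1 and CT5, within each arm. In arm A both mornings were lit, and a lit night lay between them. Cry3-Ch22 in the SV had 57.9, 78.1 and 108 on the second morning, against 29.4, 34.6 and 59.8 on the first, a difference of 1.07 (SE 0.20, exact permutation p = 0.005, the smallest possible, adjusted p = 0.095). In the OT it had 137, 171 and 199, against 95.4, 129 and 142 (0.45, exact permutation p = 0.015, adjusted p = 0.0473), and in the gill 21.7, 27.1 and 40.4, against 9.22, 12.9 and 34.5 (0.79, exact permutation p = 0.025, adjusted p = 0.1). Cry3-Ch22 passed in the OT alone, among 13 of 41 transcripts, while 0 passed in the SV and 0 in the gill. Of the 13 in the OT, 12 were higher and 1 lower, with a median difference of 0.21 over all 41. At ZT5, a lit hour of the day before, Cry3-Ch22 in the OT had 145 to 184, against 137 to 177 at CT29. The OT call thus does not show a level above that of the earlier lit day. In the SV ZT5 had 29.8 to 49.4 against 62.7 to 108 at CT29, and in the gill 12.35 to 29.7 against 25.0 to 40.4. Transcripts at an unadjusted exact p under 0.05 were 7 in the SV, 21 in the OT and 12 in the gill, and the adjusted p depends on how many are low. In the SV the p of Cry3-Ch22 was already the smallest possible, so these calls do not rank the tissues. In DD, with darkness on both mornings, the differences of Cry3-Ch22 were 0.25 in the SV, 0.12 in the OT and -0.21 in the gill, and Cry3-Ch12 differed by 0.06, 0.27 and -0.11 in arm A (exact permutation p of at least 0.28 for each of these 6 values).

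Rhythms were tested with JTK_CYCLE at periods of 20 and 24 h, with a Bonferroni adjustment over its 11 curves. In the diel series Cry3-Ch22 was rhythmic in the SV (adjusted exact p = 0.00818, n = 21, period 24 h). Its mean signal was 39.3 ± 9.84 at ZT5, 71.7 ± 14.8 at ZT9, 52.5 ± 17.2 at ZT13, 52.9 ± 3.73 at ZT17, 37.7 ± 8.97 at ZT21, 31.4 ± 2.30 at CT1 and 43.8 ± 13.8 at CT5 (SD, n = 3 fish each). The fitted 24 h curve peaked 11.8 h after lights-on, after the usual light hours, with an amplitude of 0.47 on the log2 scale and a peak 1.91 times its trough. The call was lost without the middle-numbered fish (adjusted exact p = 0.313) and after Benjamini-Hochberg adjustment over the 38 transcripts (0.0811). The study, which also used JTK_CYCLE, describes this pair as arrhythmic. It also reports that the profiles of the members differed, and describes a rise of Cry3-Ch22 in the SV after the change to LL as induced by light. Of the SV transcripts 8 were rhythmic, 21.1%. Cry3-Ch12 in the SV had its lowest mean at ZT9 (29.3 ± 8.94) and its highest at CT1 (42.2 ± 5.98, SD, n = 3), with a fitted peak at 23.3 h and an amplitude of 0.25, and did not pass (adjusted exact p = 0.3).

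In the OT Cry3-Ch22 had 165 ± 19.7 at ZT5, 165 ± 35.9 at ZT17 and 113 ± 6.33 at ZT21, the lowest mean of the series (SD, n = 3). At the closing CT1 and CT5 it had 121 ± 16.2 and 126 ± 26.1. All fish of CT5 (95.4 to 142) lay below those of ZT5 (145 to 184), so the series did not return to its first level. Cry3-Ch22 did not pass as rhythmic (adjusted exact p = 0.209). It passed after scaling to the geometric mean of expressed transcripts (adjusted exact p = 0.000604) and by a permutation test of the 24 h curve (p = 0.0205). Of the OT transcripts 22 of 41 were rhythmic, 53.7%. In the gill neither member passed (adjusted exact p = 1 and 0.937), and 6 of 40 transcripts did, 15%. In LL and DD neither member was rhythmic in any tissue, the smallest adjusted exact p being 0.265 for Cry3-Ch22 of the gill in DD (n = 18). The transcripts rhythmic in LL were 0 of 38 in the SV, 13 of 41 in the OT and 4 of 40 in the gill (0%, 31.7% and 10%), and in DD 2, 12 and 2 (5.26%, 29.3% and 5%), where the test has no adjustment over transcripts. The diel amplitude of Cry3-Ch22 was 0.47 in the SV, 0.24 in the OT and 0.29 in the gill, and no difference of amplitude between tissues passed for either member (permutation p of 0.0949 or more).

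The shape of the members' profiles was compared by the study's own test, an F test of 1 shared sixth-order polynomial against separate ones on values divided by the transcript's mean. In the SV the members differed over the diel and LL series (p = 0.00108, n = 39) and over the diel and DD series (p = 0.00865, n = 39), at a threshold of 0.01. The diel series ran from ZT5 to the closing CT5 of arm A in both, and LL or DD from CT9 to CT29. With the log2 ratio permuted over samples, which keeps the members of a sample paired, the permutation p was 1e-05 with LL, the smallest possible, and 0.0152 with DD. Without any 1 of the 3 fish per time point the F test lost both calls (0.0103 to 0.0347 with LL and 0.0218 to 0.118 with DD). In the OT and the gill the profiles did not pass at this threshold (p from 0.448 to 0.931, n = 39 each). Of all pairs 1 of 13 passed in the SV, 1 of 15 in the OT and 0 of 14 in the gill, in either combination of series, with 1 and 0 of the gill at a p under 0.05 (with LL and with DD, n = 39). The mean ratio of 3 fish in the SV spanned 0.761 at CT1 to 2.68 at ZT9 in the diel series and 1.85 at CT9 to 2.77 at CT13 in LL.

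The transcripts whose course over the 21 time point means was most like that of each member were found after each sample was centred on its mean over expressed transcripts. These correlations are descriptions over time points that share arms and libraries. In the SV and the OT the nearest to Cry3-Ch22 was Per2-Ch14, with r = 0.62 and 0.88 (0.74 and 0.86 uncentred), followed in the OT by Per2-Ch3 (0.86) and Tef-Ch28 (0.70), and in the SV by Tef-Ch28 (0.32) and Arntl1-Ch16 (0.27). Without centring Per2-Ch14 was not the nearest, since Tef-Ch28 and Arntl1-Ch16 in the SV were at 0.76 and 0.78 and Per2-Ch3 in the OT was at 0.91. Tef and Hlf encode transcription factors of the PAR bZIP family, which bind D-box elements, Arntl1 an activator of the clock and Nr1d2 a nuclear receptor that represses Arntl1. For Cry3-Ch12 the nearest were Cry2-Ch10 (0.64), Hlf-Ch1 (0.55) and Cry2-Ch26 (0.47) in the SV and Nr1d2-Ch2 (0.77), Per2-Ch14 (0.72) and Per2-Ch3 (0.70) in the OT. The members themselves were at r = -0.35 in the SV, ranked 31st and 28th of 37, but at 0.22 without centring, so that the sign depended on it. They were at 0.67 in the OT, where each was the 4th nearest of 40 to the other, and at 0.60 in the gill, where each was the nearest of 39 to the other (0.79 and 0.65 uncentred). After the partner came Nr1d2-Ch27 (0.48) and Cry4-Ch13 (0.42) for Cry3-Ch22 of the gill and Tef-Ch3 (0.37) and Nr1d2-Ch2 (0.37) for Cry3-Ch12. Uncentred, these last were at 0.66 and 0.69 and thus above the partner.

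Among the 5 other cryptochromes of the CodeSet, 4 were higher in LL than in DD in the SV, 3 in the OT and 1 in the gill, with 0 lower in any tissue by the permutation test at an adjusted p under 0.05. Over all expressed transcripts 13 of 38 were higher in the SV, 16 of 41 in the OT and 4 of 40 in the gill. In either direction the share that passed was 34.2%, 48.8% and 20%. The other cryptochromes' median differences were 0.44, 0.19 and 0.07, against 0.25, 0.06 and 0.06 over all expressed transcripts. The largest was 0.52 for Cry4-Ch13 in the SV, 0.33 for Cry2-Ch10 in the OT and 0.35 for Cry4-Ch13 in the gill, and each was below that of Cry3-Ch22 in the same tissue. Of the period genes 3 of 5 were higher in the SV, with Per2-Ch14 at 0.95, 2 of 5 were higher and 1 lower in the OT, with Per2-Ch14 at 1.53, and 0 of 6 were higher and 2 lower in the gill, where Per2-Ch14 differed by 0.25 (adjusted permutation p = 0.321). The activators, the Arntl1 and Clock genes, had 1 of 6 higher in the SV, 2 of 6 higher and 1 lower in the OT, and 0 of 6 in either direction in the gill. Of the 8 PAR bZIP factors 2 were higher in the SV, 3 were higher and 2 lower in the OT, and 1 was higher in the gill. Scaled to the geometric mean, 0 of the other cryptochromes passed in the SV, 2 were higher and 1 lower in the OT, and 1 was higher in the gill. Of the SV calls in all these lists that scaling left Per2-Ch14 higher and added Hlf-Ch28 as lower. In the OT it gave 2 higher and 3 lower periods, 0 higher and 4 lower activators and 2 higher and 4 lower PAR bZIP factors, and in the gill 3 lower periods, 1 lower activator and 1 higher PAR bZIP factor.

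Between fish of the same time point, the log2 signal of Cry3-Ch22 had an SD of 0.48 in the SV, 0.18 in the OT and 0.55 in the gill, and that of Cry3-Ch12 had 0.41, 0.40 and 0.35. The same fish gave the tissues. Over 62 or 63 fish, the correlation of their deviations from the time point mean in the log2 ratio was 0.20 between SV and OT, 0.25 between SV and gill and 0.18 between OT and gill, which is a description of fish that share time points and arms.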

How the data were processed

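The deposited table held the signal of 48 transcripts in 189 samples, barcode counts of a NanoString CodeSet that the authors normalised to spike-in positive controls, between samples and between runs; whether background was subtracted is not given in the sources used here. Extraction used a mini kit for OT and gill and a micro kit for SV. Levels of a transcript were not compared between tissues, of which the SV was extracted with a kit of its own. Groups came from the sample labels. The members were chosen by name and not by value, and they and the gene lists were chosen with earlier results of these data known.

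Differences were computed on log2(signal + 1), and ratios with no pseudocount, as means over time points, with labels permuted within time points in 100000 resamples or, for 6 against 6 fish, over all 400 arrangements, all two-sided. P-values were adjusted by Benjamini-Hochberg over the expressed transcripts or pairs of a tissue, and for differences between tissues over 224 transcript tests or 80 pair tests, at a threshold of 0.05. Rhythms were tested with a rewritten JTK_CYCLE with an exact null, and 24 h curves were fitted to log2 values. The scripts were tested on simulated data. Python 3.11.15, numpy 2.4.6, pandas 2.3.3, scipy 1.17.1 and matplotlib 3.10.9 were used.

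Steps were taken as whole where values matched within 0.0051. Since the tissues came from the same fish, save at CT17 in DD, the fish measured in both tissues were used as replicate blocks in an alternative. The correlation of deviations between tissues was 0.20, 0.25 and 0.18 for the log2 ratio. The fish of a time point are separate animals. Named transcripts are both members, the other cryptochromes, and the 3 transcripts most like each member, with Per2-Ch14 among these last. Hlf-Ch28 is named in addition for a call, and Nr1d2-Ch14 and Nr1d1-Ch3 for bases shared with a target. Alternatives were another scaling, pseudocount, filter, rhythm test and set of night hours, each fish per time point left out, and the libraries of few steps left out.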

Additional observations from a re-analysis of the deposited data

Results flagged for a closer look

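The LL minus DD change of the log2 ratio of Cry3-Ch22 to Cry3-Ch12 differed between tissues by a test of the difference itself. It was 0.92 larger in the SV than in the OT (permutation p = 0.00041, adjusted p = 0.0082), with changes of 1.06 in the SV and 0.14 in the OT. It differed by -0.83 between the OT and the gill (permutation p = 0.00198, adjusted p = 0.0264), with changes of 0.14 in the OT and 0.97 in the gill. The OT change is a mean over time points whose differences ran from 0.61 at CT9 to -0.54 at CT21. At 0.60 to 1.10 in the gill and 0.89 to 1.13 in the SV, the change itself kept its direction and its call under every alternative run. Both differences between tissues lost their call when some fish were left out, and that between OT and gill also with a pseudocount of 10 (-0.44, adjusted permutation p = 0.113).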

How the results depend on the processing

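Over 90 results and 13 alternative settings, 609 of 672 values were classed as unchanged. For a test this meant the same side of the threshold and, except for rhythms and profiles, the same direction. Counts of transcripts that passed are among the values and were classed by how far the count moved. The differences of Cry3-Ch22 between LL and DD passed under every alternative run, at 0.99 to 1.34 in the SV (adjusted permutation p of 7.6e-05 to 0.00357), 0.47 to 0.64 in the OT and 0.75 to 1.23 in the gill, and so did those of the ratio in the SV and the gill.

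With samples scaled to the geometric mean of expressed transcripts, Cry3-Ch12 of the SV turned to -0.042 for LL against DD, 0.091 for the DD night and 0.068 for the withheld morning, SV minus gill turned to -0.20 for Cry3-Ch12 and -0.072 for Cry3-Ch22, and 3 SV transcripts passed. The same scaling brought past the threshold the lit night of Cry3-Ch12 in the OT (0.28) and of Cry3-Ch22 in the SV (0.57), the DD night of Cry3-Ch22 and Cry3-Ch12 in the gill (-0.79 and -0.32), the morning of Cry3-Ch22 in the OT (-0.26, adjusted exact p = 0.0342) and its diel rhythm (exact p = 0.000604). Over CT13 to CT21, the lit night gave 0.95 for Cry3-Ch22 and 0.85 for the ratio in the SV, 0.37 for Cry3-Ch12 in the OT (all past the threshold) and 0.17 for Cry3-Ch12 in the gill. With a pseudocount of 10, OT minus gill was -0.44 for the ratio in LL against DD, no longer past the threshold, and 0.0087 for the amplitude of Cry3-Ch22. With every transcript kept, 4 gill transcripts passed. By a permutation test of the 24 h curve the diel p was 0.0205 for Cry3-Ch22 in the OT and 0.0448 for Cry3-Ch12 in the SV, and adjusted over transcripts the exact p of Cry3-Ch22 in the SV was 0.0811. With the fish as a replicate block, which left out fish not measured in both tissues, SV minus OT was 0.77 for Cry3-Ch22 in LL against DD and passed. With the members paired, the profile in the SV with DD had a permutation p of 0.0152. These blocks changed no other call. Without the 3 libraries of few steps, chosen after seeing the data, 22 SV transcripts passed, OT minus gill of Cry3-Ch22 was 0.086 for amplitude and -0.022 for the lit night, and SV minus gill of the ratio in the lit night was -0.0088. The causes were not tested.

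Leaving out 1 of 3 fish per time point gave 0.38 to 0.53 for Cry3-Ch12 of the OT in LL against DD and 0.39 to 0.64 for Cry3-Ch22 of the OT in the lit night. Cry3-Ch12 in the lit night ranged from -0.010 to 0.26 in the SV and -0.10 to 0.040 in the gill, and in the DD night from -0.34 to 0.024 in the SV. For the withheld morning the ranges were -0.28 to 0.036 (Cry3-Ch12) and -0.66 to 0.051 (ratio) in the SV, -0.73 to 0.0072 (Cry3-Ch12) and -0.23 to 0.079 (Cry3-Ch22) in the OT, and -0.35 to 0.058 (Cry3-Ch22) and -0.20 to 0.46 (ratio) in the gill. The diel rhythm of Cry3-Ch22 had an exact p of 0.0162 to 0.313 in the SV and 0.028 to 1 in the OT. Profile p in the SV was 0.0103 to 0.0347 with LL and 0.0218 to 0.118 with DD (F test, n = 26). Differences of LL against DD between tissues were 0.86 to 1.00 (SV minus OT), -1.05 to -0.62 (OT minus gill) and -0.052 to 0.27 (SV minus gill) for the ratio, and -0.14 to 0.19 for Cry3-Ch12 (SV minus gill). In the lit night OT minus gill was -0.058 to 0.26 for Cry3-Ch22. The amplitude of Cry3-Ch12 differed by -0.042 to 0.11 (OT minus gill) and -0.0078 to 0.24 (SV minus OT). Transcripts past the threshold in LL against DD were 7 to 13 in the SV, 12 to 21 in the OT and 2 to 7 in the gill. An edgeR quasi-likelihood test was not run, since whole reads could not be established.

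Cry3-Ch22 had 5 to 60 steps per library in the gill and 83 to 254 in the OT, with an SD between fish of a time point of 0.55 and 0.18.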
